A study of Mus musculus with 23 samples.

Results

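The livers described here came from the reference group of the study, for which the paper gives more mice than there are libraries here. The mice were F3 male C57bl/6J mice of the control lineage, whose line had received high-oleic sunflower oil in the growing diet over the generations. They were given the low-fat diet (label STD) and killed during the fasting period. Of the 23 small RNA libraries of the series, 8 belong to this group by their group label (STD_Cont), each with its own sample ID, and they are named libraries 1 to 8 after the number in their titles. They were described on their own, across all 1218 mature mouse miRNAs listed in the count table, of which 1107 had at least 1 count in these 8 livers. No other group entered any value. All mice of the group shared the oleic lineage and the fasting state, so neither can be told apart from the low-fat diet, and whole liver tissue was sequenced rather than sorted cells. The labels give no age.

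miRNAs are RNAs of about the length of a short primer that are cut as a duplex from a hairpin precursor; 1 strand of the duplex (the 5p or the 3p arm) is usually retained in an Argonaute protein, and bases 2 to 8 of that strand, the seed, pair with target mRNAs. miRNAs with the same seed form a family with overlapping targets, and hairpins that lie close together in the genome are often cut from 1 primary transcript. In liver, miR-122, miR-192 and miR-194 are known as products of hepatocytes, whereas other miRNAs are known mainly from bile duct epithelium, stellate cells, endothelium or blood cells that the organ also holds.

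The libraries held 5242218 to 8139344 counts each, and every pair of libraries differed by more than sampling noise, with a chi-square per degree of freedom of at least 28.9 over the 28 pairs. Reads amplified by PCR are not independent, so this cannot tell separate mice from repeats of 1 RNA. Each library was counted as 1 replicate by its sample ID. Levels are given as CPM (counts per 1000000 counts) on library totals scaled by TMM, a factor that sets the typical miRNA of the libraries level. Libraries 3, 4 and 5 stood apart from libraries 1, 2, 6, 7 and 8. Library 3 had a TMM factor of 1.40 against 0.906 to 1 in the others, and its median miRNA lay 0.37 above the median library on the log2 scale on library totals but 0.09 below it after TMM, so that the size of its deviations depends on the scale. Spearman's rho across the 269 miRNAs that averaged 10 CPM or more was between 0.887 and 0.996 for the 28 pairs of libraries, and the median rho of a library with the others was lowest for libraries 5 (0.891) and 3 (0.920). On these log levels the first principal component held 61.3% of the variance and placed libraries 5 and 3 on 1 side, the second held 18.5% and set library 3 against library 5, and the third held 11% and set library 4 apart.

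The sequences below, taken from RefSeq for GRCm38.p6 and written 5′ to 3′ with the seed in capitals, are those of the miRNAs that carried most of the counts and of members of their families that are described further on. Of the 1218 entries, 1045 had a mature sequence in that table, and these entries held 86.9% of the counts. miR-143-3p, miR-122-5p, miR-126a-5p, miR-30d-5p and miR-378a-3p, which were among the 20 highest, are named only.

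miR-192-5p: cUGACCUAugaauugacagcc
miR-215-5p: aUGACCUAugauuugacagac
miR-22-3p: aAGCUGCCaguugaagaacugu
miR-148a-3p: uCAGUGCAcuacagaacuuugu
miR-30a-5p: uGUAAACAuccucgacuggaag
miR-30e-5p: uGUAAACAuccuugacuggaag
miR-30c-5p: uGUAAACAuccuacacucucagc
miR-21a-5p: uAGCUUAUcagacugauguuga
miR-26a-5p: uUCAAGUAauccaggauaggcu
miR-26b-5p: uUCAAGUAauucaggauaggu
miR-10a-5p: uACCCUGUagauccgaauuugug
miR-10b-5p: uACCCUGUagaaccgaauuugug
let-7f-5p: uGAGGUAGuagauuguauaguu
let-7a-5p: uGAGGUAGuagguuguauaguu

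miR-192-5p, the first miRNA of the ranking, lies at chr19:6264857-6264877 on the plus strand of GRCm38.p6, and the hairpin of miR-194-2 lies upstream of it on that strand. miR-22-3p lies in an exon of the non-coding host Mir22hg and of Tlcd2 at chr11:75463772-75463793 on the plus strand, miR-148a-3p lies at chr6:51269829-51269850 on the minus strand outside any annotated host gene on that strand, and the hairpin of miR-21a lies in an exon of Vmp1 on chromosome 11. The positions come from RefSeq and the host genes from GENCODE M21; the count table itself holds no coordinates.

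The miRNA population of the low-fat liver was concentrated in a few species. miR-192-5p, a hepatocyte and gut miRNA, was first with 197123 ± 47097 CPM (SD, n = 8) and 19.2% ± 2.97 of all counts, and miR-22-3p, a broadly expressed miRNA of metabolic tissues, was second with 174635 ± 26394 CPM and 17.3% ± 0.737. The level of miR-192-5p was lowest in library 3 with 88221 CPM, had a median of 214019 CPM and was highest in library 8 with 237316 CPM; library 3 lay outside the range of the other 7 libraries, which began at 188276 CPM. miR-22-3p ranged from 117258 CPM, also in library 3, around a median of 182923 CPM to 201518 CPM. This place of library 3 holds on the TMM scale only. As a share of all counts miR-22-3p was at 16.4% in library 3 and at 16.2% in the lowest library. miR-192-5p was above miR-22-3p in 7 of 8 libraries, by 0.14 ± 0.22 on the log2 scale, so that the first and the second place did not differ beyond the spread between the mice. In library 3 alone miR-22-3p came first, with 16.4% of the counts (95% Wilson interval 16.3 to 16.4) against 12.3% (12.3 to 12.4) for miR-192-5p; these intervals cover counting error only, since reads amplified by PCR without molecular identifiers are not independent molecules.

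The third place was held by miR-148a-3p in all 8 libraries. This miRNA, known from studies of lipid and cholesterol metabolism, had 89818 CPM at the median, 66868 CPM in library 3 and 99228 CPM at most, and it was below miR-22-3p by 0.97 ± 0.10 and above miR-30a-5p by 0.48 ± 0.11 on the log2 scale, which is more than the spread. Of the 20 steps between neighbours among the 21 highest miRNAs, 6 had the same order in every library with a mean log2 ratio above 1 SD, and 14 did not; 1 of the 6 is the step from miR-122-5p to miR-122b-3p, which share their locus. The places from miR-30a-5p (64149 CPM on average) through miR-21a-5p (49176 CPM), miR-26a-5p, miR-10a-5p and let-7f-5p to miR-143-3p (28026 CPM) are therefore an order of means, whereas miR-143-3p, known from stellate and smooth muscle cells, was above miR-27b-3p in 8 of 8 libraries. miR-122-5p, the best known miRNA of hepatocytes, was 11th with 19451 ± 4475 CPM and 1.90% ± 0.271 of the counts; it ran from 9716 CPM in library 3 over a median of 20578 CPM to 23869 CPM, and its rank within a library was between 10 and 13. Ligation of adapters and PCR act on each sequence in its own way, so a rank between different miRNAs is a rank of reads and not of molecules.

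The 10 most abundant miRNAs of this mean ranking held 72.8% ± 1.18 of the counts of a library, from 71.0% in library 5 over a median of 73.3% to 74.0% in library 2, with counting intervals of at most 0.0378 points on either side. The 3 highest held 45.3% ± 3.34, the 20 highest 85.9% ± 1.68, the 50 highest 96.2% ± 0.751 and the 100 highest 98.9% ± 0.286. The effective number of miRNAs, which is the number of equally abundant species that would give the same Shannon entropy, was 22.9 ± 2.27; it was highest in library 3 with 27.4 and next highest in library 5 with 24.9, whereas the lowest library had 20.9. At the other end, 232 miRNAs were at or above 10 CPM in every library and 269 were so on average. Of these, 2 averaged 100000 CPM or more, 15 lay between 10000 and 100000 CPM and 35 between 1000 and 10000 CPM, while 647 detected miRNAs had a mean under 1 CPM and together held 0.0117% of the counts. The plot of cumulative shares shows that the libraries differed most over the first ranks and drew close by the 10th.

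**Figure D1:**
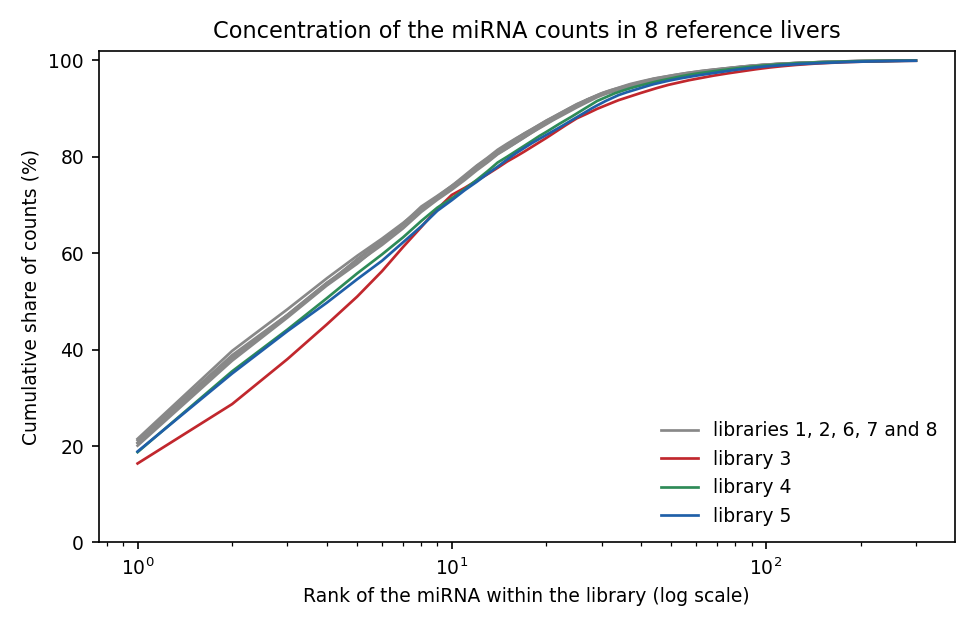
Cumulative share of counts (%) against the rank of the miRNA within its own library (log scale), 1 line per library; libraries 3, 4 and 5 are coloured. The 5 grey libraries nearly coincide, and library 3 starts lowest, with its first miRNA at 16.4% of the counts, but the 10 miRNAs with the highest means held 71.0 to 74.0% in all 8.

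Several names of the ranking were read from the same piece of genome. miR-122b-3p (rank 12) and miR-126b-3p (rank 13) belong to hairpins that overlap those of miR-122 and miR-126a, that of miR-126b on the opposite strand and that of miR-122b with no strand given in the tables used, and their counts were almost those of miR-122-5p and miR-126a-5p. The summed counts were 953614 for miR-122-5p and 936338 for miR-122b-3p, a gap of 1.81%, and 810070 for miR-126a-5p and 810071 for miR-126b-3p, which were identical in 7 of 8 libraries. In all, 12 such pairs of entries on overlapping hairpins had summed counts within 5% of each other, and the second-named partner entries held 4.39% ± 0.448 of the counts. Both mature positions were in the RefSeq table for 6 of the 12 pairs, and all 6 overlapped on opposite strands, as in miR-338-3p and miR-3065-5p, which are shown because each is the reverse complement of the other over 21 bases.

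miR-338-3p: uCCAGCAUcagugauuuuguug
miR-3065-5p: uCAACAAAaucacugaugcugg

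These 2 entries had 2677 and 2671 counts and were identical in 5 of 8 libraries. Whether such reads came from the 1 or the other strand cannot be told apart from the counts. Without the 12 partner entries the 10 most abundant miRNAs held 76.2% ± 1.29 of the counts and the effective number was 20.7 ± 2.20. A like doubling was seen between paralogs: miR-199a-3p, which has 2 loci, had 2.03 ± 0.00685 times the counts of miR-199b-3p, which has 1, so the levels of these paralogs are uncertain.

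Grouped by seed, the 10 largest families held 78.9% ± 0.652 of the counts (77.9 to 79.8% over the libraries), and most of them consisted of 1 dominant member. The miR-192/215 family came first with 19.3% ± 2.97 of the counts. miR-192-5p made up 99.9% ± 0.355 of it. miR-215-5p, its intestinal paralog, was between 23.7 and 38.7 CPM in 7 libraries and at 1955 CPM in library 4, where it was 1.02% of the family (95% Wilson interval 1.01 to 1.04). miR-22-3p had no other member at all, and the miR-148/152 family (8.91% ± 0.313) was miR-148a-3p to 98.9% ± 0.153, with miR-148b-3p at 1.03% ± 0.148.

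The miR-30 and let-7 families were shared among more members, and their composition was stable. Within the miR-30 family (8.27% ± 0.426 of the counts for the members with a sequence) miR-30a-5p held 76.6% ± 0.740, miR-30e-5p 13.3% ± 0.413 and miR-30c-5p 10.1% ± 0.529; with miR-30b-5p and miR-30d-5p, which were joined by the number in the name only, the family reached 9.72% ± 0.384. The let-7 family, whose members restrain growth programmes in differentiated cells, had 10 members and 6.07% ± 0.583 of the counts. let-7f-5p held 57.2% ± 2.39 of it, let-7a-5p 14.9% ± 1.3, let-7c-5p 10.4% ± 0.958 and let-7g-5p 8.92% ± 0.774. let-7i-5p held 3.75% ± 1.29 on average but up to 6.88% in 1 library, against a lowest share of 3.03%. miR-26a-5p and miR-26b-5p divided their family (4.88% ± 0.266) at 80.3% and 19.7%, each ± 1.04 points.

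The miR-10 family was the exception to this stability. miR-10a-5p, encoded in the Hoxb region, was at 33779 to 39347 CPM in 7 libraries and at 48778 CPM in library 5, which lay above all others. This holds on the TMM scale only, since on library totals miR-10a-5p was higher in library 3 than in library 5. miR-10b-5p, its paralog from the Hoxd region with the same seed, ran from 295 CPM in library 1 over a median of 752 CPM to 20835 CPM in library 5, with library 3 second at 1781 CPM. miR-10b-5p therefore made up 29.9% of the family in library 5 (95% Wilson interval 29.8 to 30.1), 4.50% in library 3 and as little as 0.820% elsewhere. The family as a whole held 4.12% ± 1.38 of the counts, with 3.09 to 6.98% over the libraries.

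Arm use was examined in 158 hairpins for which both arms are listed and which had at least 100 counts per library over both arms. The arms were nearly always unequal: 116 hairpins had 90% or more of their counts on 1 arm, 62 of them on the 5p arm and 54 on the 3p arm, and 62 hairpins had 99% or more. The 5p arm was ahead in 84 hairpins and the 3p arm in 74, and the same arm was ahead in all 8 libraries in 151 hairpins. Summed over all entries, 58.6% ± 0.986 of the counts were on 5p arms and 40.9% ± 0.917 on 3p arms. The most one-sided hairpins were miR-182, with 93968 counts on 5p and 1 on 3p summed over the 8 libraries, miR-143 (0.00771% on 5p, 1418623 counts on 3p), miR-103 (6 and 85921), miR-26a (1942402 and 203), miR-10b (159890 and 14), miR-101b (26 and 149224), miR-351 (22612 and 4), miR-192 (9620704 and 3025), miR-22 (3554 and 8596019) and miR-146a (25910 and 12). miR-30a was at 98.5% ± 0.0812 on 5p and miR-122 at 94.5% ± 0.552 on 5p, and the overlapping entry miR-122b was at 94.5% ± 0.546 on 3p.

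In 10 hairpins the mean share of each arm lay between 40 and 60%. These were miR-339, miR-361, miR-106b, miR-3074, miR-664, miR-1981, miR-152, miR-423, miR-350 and miR-455, of which miR-3074 is an antisense partner of miR-24-2. miR-455 is among them through library 1 alone, with 32.7% of its counts on 5p there and 61.6 to 67.5% in the other 7 libraries. miR-361, a hairpin of the X chromosome, had 53.1% ± 1.77 of its counts on 5p (49.6 to 54.6%), and miR-423, a hairpin of many tissues, had 57.5% ± 2.65 (54.0 to 61.1%). miR-339 (48.1% ± 3.89) had its 3p arm ahead in 6 of 8 libraries, so its arms did not differ beyond the spread. Well-known cell type miRNAs also kept a second arm: miR-126a of endothelium had 86.6% ± 0.982 on 5p, miR-142a of leukocytes 87.1% ± 1.07, miR-144 of red cells 61.7% ± 4.38 and miR-486a 63.4% ± 0.628. For let-7d 69.6% ± 2.01 was on 5p, for miR-151 25.8% ± 1.06 and for miR-24 26.4% ± 1.14.

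miR-455, cut from an intron of the collagen gene Col27a1 at chr4:63256867-63256888 (5p) and chr4:63256904-63256924 (3p) on the plus strand, was the hairpin whose arms moved most among the 61 hairpins with at least 100 counts on each arm. Its arms are shown because they have different seeds.

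miR-455-5p: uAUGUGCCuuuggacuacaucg
miR-455-3p: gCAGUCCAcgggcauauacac

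The 5p arm held 61.6 to 67.5% of the counts in 7 libraries and 32.7% in library 1 (95% Wilson interval 30.7 to 34.9). In that library miR-455-3p was at 262 CPM, above 27.1 to 98.2 CPM in the others, while miR-455-5p was at 128 CPM, within 50.8 to 157 CPM of the others, so the 3p arm was the one that differed. The SD of the log2 ratio of the arms was 0.66 for miR-455 against a median of 0.15 over the 61 hairpins and a counting error of 0.09. The 10 hairpins with the largest SD among all 158, led by miR-146a, miR-374c, miR-181b, miR-1247 and miR-127, had on average 0.750 to 17.4 counts per library on the minor arm, so their ratios are set by few counts.

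Main and minor arms also differed in their first base, which was not used to choose them. Among hairpins with both sequences in the table, the main arm began with U in 74 (58.3%) and the minor arm in 22 (17.3%), while A began 28 main and 39 minor arms, C began 19 and 46 and G began 6 and 20. Among all 1045 entries with a sequence 41.1% began with U, and these entries held 51.1% ± 3.21 of the counts.

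**Figure D2:**
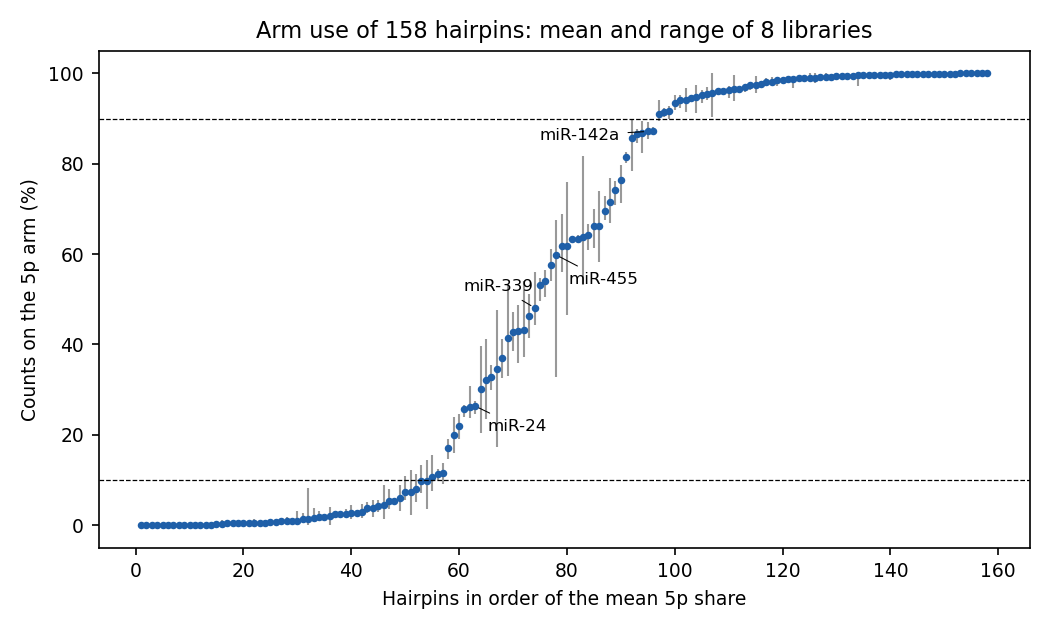
Share of counts on the 5p arm (%) of 158 hairpins in order of the mean share; points are means and grey bars the range of 8 libraries, and dashed lines mark 10 and 90%. Most hairpins lie beyond a dashed line, and miR-455 has a bar from 32.7 to 67.5%.

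Markers fixed for 9 cell or tissue types and for the imprinted Dlk1-Dio3 region were then followed across the livers. In whole tissue, fewer cells of a type and less of its RNA per cell cannot be told apart. The hepatocyte list (miR-122, miR-192, miR-194 and miR-802, 6 entries, all above 10 CPM) summed to 226729 ± 53597 CPM, with 102951 CPM in library 3, a median of 245915 CPM and 272620 CPM at most. Library 3 was thus below the other 7, which began at 214584 CPM; it was at 0.414 times their median, and at 0.611 times on library totals. The 4 entries of miR-122, miR-192 and miR-194 were lowest in library 3, whereas miR-802-5p and miR-802-3p were lowest in library 7, the library with the highest miR-122-5p. miR-802-5p was at 517 CPM there and at 659 CPM in library 3, close to its median over the 8 libraries, also 659 CPM. On library totals, however, miR-802-5p was at 921 CPM in library 3, which is 1.39 times the median of the others. miR-802-3p in library 3 was also at 1.39 times on library totals, against 0.913 times by TMM.

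The biliary list (miR-200a, miR-200b, miR-200c, miR-141 and miR-429, known from epithelia) went the other way. Its 5 members summed to 159 to 296 CPM in 7 libraries and to 984 CPM in library 3, which is 5.31 times the median of the others, 7.62 times on library totals and 3.53 times with upper-quartile factors. miR-200b-3p was at 391 CPM in library 3 against 57.7 to 119 CPM, miR-429-3p at 249 CPM against 38.2 to 58.1 CPM, miR-200a-3p at 222.2 CPM against 35.6 to 67.4 CPM and miR-141-3p at 110 CPM against 23.3 to 47.2 CPM. No other library overlapped with library 3 for any of them.

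The stellate cell and fibroblast list was dominated by miR-143-3p and summed to 29128 ± 4675 CPM. All 5 members at 10 CPM or more were highest in library 3: miR-199a-3p was at 1563 CPM there and at 421 to 592 CPM elsewhere, miR-199a-5p at 369 CPM against 125.8 to 161 CPM and miR-214-3p at 91.5 CPM against 17.5 to 29.1 CPM, while miR-143-3p (35889 CPM, next 33162 CPM) and miR-145a-5p were less far from the rest. The summed list was 1.43 times the median of the others in library 3, 2.06 times on library totals and 0.943 times with upper-quartile factors, so its direction depends on the scale. The leukocyte list, 8 entries from miR-142a-5p (1286 ± 280 CPM) down to miR-155-5p (16.7 ± 8.86 CPM), was highest in library 3 for 7 entries, with miR-146b-5p at 123 CPM against 22.3 to 49.9 CPM, and summed to 1917 to 3479 CPM. In library 3 this sum was 1.48 times the median of the others, 2.17 times on library totals and 1.03 times with upper-quartile factors.

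The endothelial miR-126a was steadier. miR-126a-3p ran from 1927 CPM in library 3 over a median of 2595 CPM to 2750 CPM, and miR-126a-5p from 10561 CPM to 18332 CPM; the summed list in library 3 was 0.620 times the median of the others, but 0.925 times on library totals. The red cell list (miR-451a, miR-144 and miR-486a) was lowest in library 3 with 3212 CPM and highest in library 4 with 9097 CPM, and all 4 entries shared both extremes on this scale. In library 3 it was at 0.525 times the median of the others, and at 0.782 times on library totals, where miR-451a and miR-144-3p were lowest in library 8 instead and all 4 entries were still highest in library 4. miR-451a, which is made in erythroid cells without Dicer, had 809 ± 243 CPM, with 483 CPM in library 3 and 1291 CPM in library 4.

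The summed lists of tissues other than liver were at most 59.5 CPM outside the 1 library where each was highest. miR-375-3p, known from pancreatic islets and other endocrine and epithelial cells, was at 13.6 to 59.4 CPM in 7 libraries and at 2079 CPM in library 5, whereas the other 3 pancreatic entries, miR-216a-5p, miR-216b-5p and miR-217-5p, averaged 0.157, 0.109 and 0.284 CPM and did not exceed 0.957 CPM in any library. Of the muscle and heart list, miR-133a-3p was at 1.92 to 11.8 CPM in 7 libraries and at 213 CPM in library 4; miR-1a-3p, the most abundant miRNA of muscle, was at 9.32 CPM in library 4 and at most 0.912 CPM elsewhere, and miR-208a-3p was not in the table used here. The neuronal list was at 10.7 CPM in library 5 and at 2.58 to 3.48 CPM elsewhere.

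The Dlk1-Dio3 region, a maternally expressed imprinted cluster of many miRNA hairpins on chromosome 12, was high in library 5. Of its 23 listed entries 22 were highest there and 20 were second highest in library 3. The summed level was 152 CPM at the lowest and 165 CPM at the median, 838 CPM in library 3 and 6577 CPM in library 5, which is 5.22 and 41.0 times the median of the other 6 libraries, and 7.86 and 44.2 times on library totals. miR-127-3p was at 69.9 to 104 CPM in 6 libraries, 324 CPM in library 3 and 4055 CPM in library 5; miR-411-5p at 27.3 to 42.0, 182.7 and 717 CPM; and miR-434-3p at 16.9 to 21.8, 64.8 and 598 CPM. miR-375-3p, miR-10b-5p and the Dlk1-Dio3 entries were thus high in the same liver, and miR-133a-3p and miR-215-5p together in library 4. The part that these markers have in the other results of libraries 3, 4 and 5 was not tested.

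**Figure D3:**
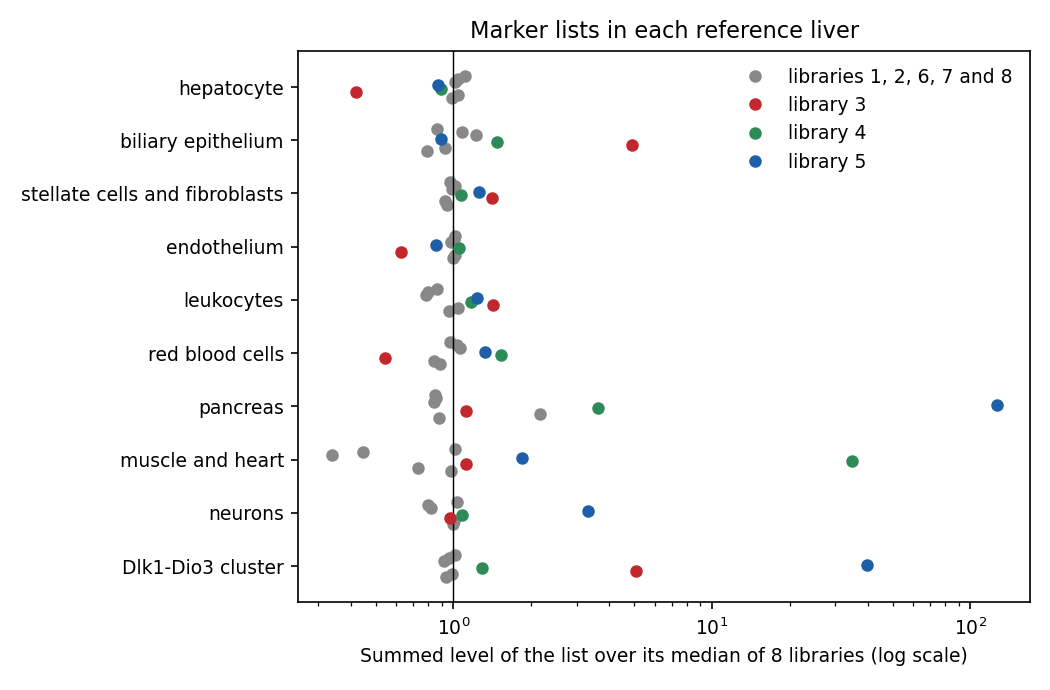
Summed TMM-scaled level of each marker list divided by its median over the 8 libraries (log scale), 1 point per library. Library 3 lies at 0.419 of the median for the hepatocyte list and at 4.91 times for the biliary list, library 5 is far right for the pancreas and Dlk1-Dio3 lists and library 4 for the muscle and heart list.

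miR-34a-5p, a p53-responsive miRNA that the study centres on, was a low-abundance species of these livers, with rank 196. Its levels in libraries 1 to 8 were 13.7, 21.1, 112, 22.5, 19.4, 25.8, 21.5 and 25.6 CPM. The mean was 32.7 ± 32.3 CPM over all 8 and 21.4 ± 4.14 CPM without library 3, which did not overlap with the others. Library 3 was at 5.20 times the median of the others, and at 7.74 times on library totals.

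Variability was otherwise low. Over the 269 miRNAs that averaged 10 CPM or more the median coefficient of variation (CV, the SD over the mean) was 0.171, with quartiles of 0.117 and 0.266, against a median counting error of 0.0416. A CV above 0.5 was found for 41 of the 269. Of these 41, 20 were highest in library 5 and 18 in library 3; without library 3 the count was 22 and the median CV 0.119, and without libraries 3, 4 and 5 together it was 5 of 251 with a median of 0.0869. A single library stood apart by Dixon's criterion in 90 miRNAs (33.5%): library 3 in 64 (31 above and 33 below the others), library 5 in 19, all above, library 4 in 3, library 2 in 2 and libraries 1 and 8 in 1 each. Chance flags about 1 in 20 of independent, normally distributed groups. The miRNAs share the 8 libraries and CPM were not put on a log scale, so 33.5% cannot be set against that rate. Over all libraries 57 stood above and 33 below by TMM, 109 and 10 on library totals and 33 and 10 with upper-quartile factors. On library totals library 3 stood above in 87 and below in 9, so that the balance of its deviations depends on the scale.

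The steadiest miRNA was miR-191-5p, often used as a reference for normalization, with a CV of 0.0339 and levels from 6442 over a median of 6877 to 7218 CPM. It was followed by miR-93-5p (CV 0.0447, 816 ± 36.5 CPM), miR-140-5p (0.0544), miR-20a-5p (0.0546), miR-361-5p (0.0573) and miR-25-3p (0.0573, 1166 ± 66.9 CPM); the other 4 of the lowest 10 were miR-24-2-5p with its antisense partner miR-3074-2-3p, miR-484 and miR-186-5p. miR-93-5p and miR-25-3p are encoded together in the gene Mcm7. The steadiness of these 10 depends on the scale: on library totals their CVs lay between 0.0948 (miR-186-5p) and 0.213 (miR-24-2-5p), with miR-191-5p at 0.146.

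The 10 most variable were miR-375-3p (CV 2.59), miR-215-5p (2.51), miR-410-3p (2.37), miR-133a-3p (2.33), miR-127-3p (2.30), miR-10b-5p (2.14), miR-582-3p (2.14), miR-434-3p (2.09), miR-434-5p (2.06) and miR-136-3p (2.04). The highest library was library 5 in 7 of them, library 4 in 2 and library 3 in miR-582-3p, which lies in an intron of Pde4d and was at 174 CPM in library 3 against 4.4 to 17.3 CPM elsewhere. Without libraries 3, 4 and 5 the CV was still 0.716 for miR-582-3p, 0.504 for miR-375-3p, 0.456 for miR-10b-5p and 0.444 for miR-133a-3p, and it was at most 0.204 for the other 6. The median CV by level was 0.195 for the 2 miRNAs at 100000 CPM or more, 0.149 from 10000, 0.178 from 1000, 0.165 from 100 and 0.181 from 10 CPM. A CV above 0.5 was found for 1 miRNA at 1000 CPM or more on average, miR-10b-5p, for 10 between 100 and 1000 CPM and for 30 between 10 and 100 CPM.

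**Figure D4:**
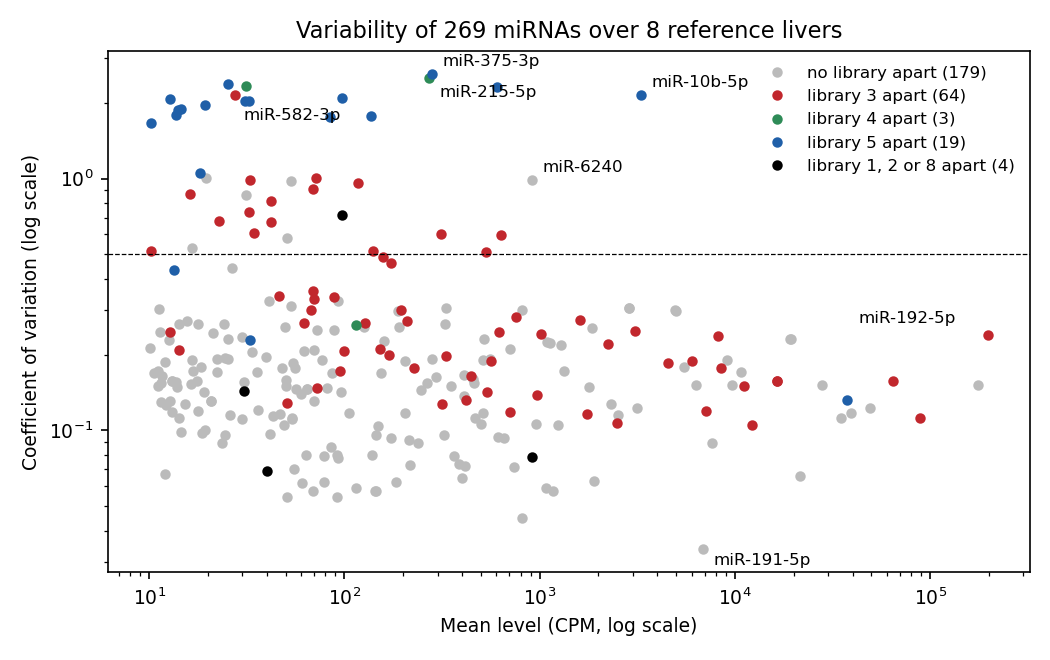
Coefficient of variation against the mean level in CPM (both log scale) of 269 miRNAs, coloured by the library that stands apart; the dashed line marks 0.5. Library 5 marks 7 of the 10 highest points, library 3 is spread over all levels and miR-191-5p lies lowest at 0.0339.

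Co-variation over the 8 livers was tested for all 36046 pairs of these 269 miRNAs by an exact two-sided permutation test of Pearson's r on log2 CPM. After Benjamini-Hochberg adjustment over all pairs 39 were called (0.108%), 31 with a positive r (0.086%) and 8 with a negative r (0.0222%), while 7469 had an unadjusted p under 0.05. With 8 libraries the smallest exact p is 2.48e-05, and the largest exact p that passed was 4.96e-05, so a pair that missed the threshold is not shown to vary independently. Of the 39 pairs, 8 were partner entries of overlapping hairpins (of 10 tested), 3 were the 2 arms of a hairpin, 2 shared a seed, 1 was a pair from neighbouring hairpins and 25 were of no such class by these rules. Of the 25, 3 nonetheless come from overlapping hairpins: miR-486a-5p with miR-486b-3p, miR-486a-3p with miR-486b-5p and miR-203-5p with miR-203b-3p. With Spearman's rho no pair was called, while 3891 had an unadjusted p under 0.05. The smallest exact permutation p of rho is 4.96e-05, which is too large to pass unless many pairs reach it. The lack of calls by rho therefore cannot show that the pairs called by r are unstable. Leaving out any 1 library left no call, with 3175 to 7224 pairs at an unadjusted p under 0.05, and the smallest p of 7 libraries, 0.000198, is too large to pass unless very many pairs reach it, so this says nothing on stability.

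Pairs that share a precursor varied together more closely than others did, as a description without a test. The median r was 0.792 over the 77 pairs of arms of 1 hairpin (93.5% positive), 0.647 over the 133 pairs of hairpins within 10 kb on 1 strand (86.5% positive), 0.505 over the 92 pairs with the same seed and 0.0423 over the 35734 other pairs. The share called was 3.90% for arms of a hairpin, 0.752% for neighbouring hairpins and 2.17% for the same seed, where both called pairs, miR-199a-3p with miR-199b-3p and let-7a-1-3p with let-7c-2-3p, are near-identical entries. The called arm pairs were those of miR-1948, of miR-486a and of its partner entry miR-486b, so 1 locus was called under both names. Partner hairpins such as miR-122b and miR-126b also enter the share and the median r of arms beside miR-122 and miR-126a. Without libraries 3 and 5 the medians were 0.452, 0.390, 0.403 and 0.0280. The points share library, depth and scale, and pairs that share a miRNA are not independent.

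**Figure D5:**
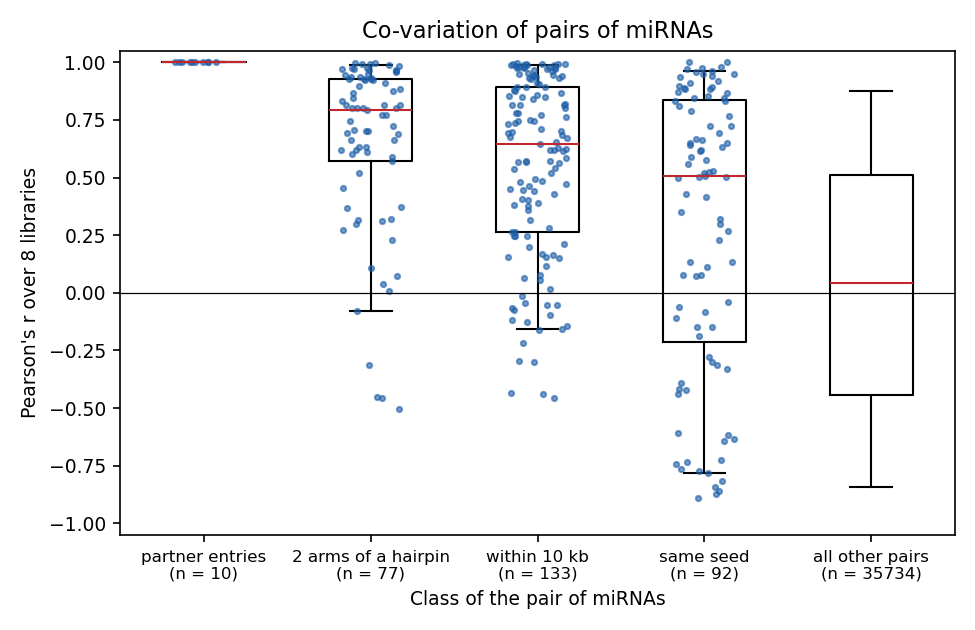
Pearson's r over 8 libraries for pairs of miRNAs by class; boxes show the median and quartiles, whiskers the 5th and 95th percentiles and points single pairs. The median falls from 0.792 for arms of a hairpin to 0.0423 for the remaining pairs.

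Of 31 pairs with a known genomic or cellular link that had been listed, 27 had both members at 10 CPM or more. None of the 27 was called by the exact permutation test at an adjusted p under 0.05, where the share over all pairs was 0.108%. Of the 27, 18 had an unadjusted p under 0.05 and 25 had a positive r. None was called by Spearman's rho, by which no pair of any kind was called. The 2 miRNAs of the hepatocyte cluster, miR-192-5p and miR-194-5p, had r = 0.991 and rho = 0.976 (exact p = 7.44e-05, adjusted p = 0.0526), and r was 0.877 without the 2 libraries farthest from the median. miR-199a-3p and miR-214-3p had r = 0.987 and rho = 0.833 (exact permutation p = 0.000918, adjusted p = 0.0951), and r = 0.907 without the 2 farthest libraries. miR-214 and 1 of the 2 loci of miR-199a lie in the Dnm3os transcript of mesenchymal cells, and the counts do not tell the 2 loci apart. miR-182-5p and miR-183-5p had r = 0.972 and rho = 0.952 (exact permutation p = 0.000546, adjusted p = 0.0844), with r = 0.881 without them.

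Listed markers of 1 cell type from separate loci had values of r from 0.755 to 0.978, and none passed. miR-451a and miR-486a-5p of red cells had r = 0.952 and rho = 0.929 (exact permutation p = 0.000471, adjusted p = 0.0821), which was 0.864 without the 2 farthest libraries. miR-122-5p and miR-192-5p of hepatocytes had r = 0.978 and rho = 0.881 (exact permutation p = 0.000967, adjusted p = 0.0951), which fell to 0.716. The pairs with the highest r to miR-122-5p, apart from its partner entry miR-122b-3p, were miR-30c-5p (0.987), miR-1843a-5p (0.984), miR-22-3p (0.982), miR-1843b-5p (0.979) and miR-30b-5p (0.978), with rho from 0.690 to 0.857 (exact permutation p from 0.000446 to 0.00265, adjusted p from 0.0809 to 0.109). Without the 2 farthest libraries r was 0.816, 0.752, 0.761, 0.596 and 0.795.

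Other neighbours had an r near 0 or one that rested on single libraries. miR-23b-3p and miR-27b-3p, cut from 1 transcript, had r = -0.0543 and rho = -0.143 (exact permutation p = 0.897, adjusted p = 0.949; r = -0.264 without the 2 farthest libraries). miR-221-3p and miR-222-3p had r = -0.218 and rho = 0.0238 (exact permutation p = 0.597, adjusted p = 0.770), and r was 0.695 without their 2 farthest libraries, and let-7c-5p and miR-99a-5p had r = 0.0791 and rho = 0.0714 (exact permutation p = 0.841, adjusted p = 0.921), with r = -0.379 without theirs. For miR-127-3p and miR-434-3p of the Dlk1-Dio3 region r was 0.998 and rho 0.690 (exact permutation p = 0.00184, adjusted p = 0.103), and r fell to 0.641 without libraries 3 and 5. For miR-451a and miR-144-3p, cut from 1 transcript of red cells, r = 0.816 and rho = 0.5 (exact permutation p = 0.0236, adjusted p = 0.182) turned to r = -0.270 without the 2 farthest libraries, 3 and 4, but r was 0.948 without library 5 and 0.907 without libraries 3 and 5. miR-144-5p, the other arm, had r = 0.968 with miR-451a (adjusted p = 0.0842 by the exact permutation test), and 0.960 without libraries 3 and 5. Over the 27 pairs, 11 had r above 0.9 and 3 still did without their 2 farthest libraries, where 14 had r above 0.5 and 5 had r below 0.

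The called pair of neighbouring hairpins was miR-200b-3p with miR-429-3p (r = 0.989, rho = 1, exact permutation p = 2.48e-05, the smallest possible, and adjusted p = 0.0358), and r was 0.969 without the 2 farthest libraries. The closest opposite pair was miR-199a-3p with miR-30e-3p (r = -0.996, rho = -1, at the same exact permutation p and adjusted p): miR-199a-3p ran from 421 to 1563 CPM and miR-30e-3p from 506 down to 272 CPM in the reverse order of libraries, and r was -0.943 without the 2 farthest. These pairs were chosen for their values.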

How the data were processed

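Small RNA libraries of 8 livers of the reference group were used, grouped by the group label. Nothing states that they came from separate extractions beyond a sample ID each. The p-values, all from the exact permutation test of pairs of miRNAs, treat each library as a separate sample. They give how often a reordering of these libraries reaches a correlation at least as large in absolute size. Per the labels and methods, the authors made TruSeq small RNA libraries, trimmed adapters with the FASTX-Toolkit, aligned reads with Bowtie in ncPRO-seq and deposited raw counts per mature miRNA of miRBase. The labels name bcl2fastq 2.17.1.14 and mm10, whereas the methods name GRCm38.p6 and mm9. The authors also deposited a signal per library (the count over a size factor), group means, and log2 fold changes with p-values; none of these was used. Every per-sample column matched a sample.

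CPM were computed on totals scaled by TMM (edgeR 4.0.16, R 4.3.3; Python 3.11.15, pandas 2.3.3, numpy 2.4.6, scipy 1.17.1, matplotlib 3.10.9). A family shares bases 2 to 8 of the RefSeq mature sequence. Arm ratios had 0.5 added to each count and needed 100 counts per library on average. A library stood apart if Dixon's ratio exceeded 0.526. Pairs of miRNAs that averaged 10 CPM or more were tested on log2 CPM (prior count 2) by exact permutation of Pearson's r over all 40320 orders of the libraries, with Benjamini-Hochberg adjustment over all pairs (called under 0.05). The pair test was tested on simulated data first.

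Named were the 20 highest miRNAs, the 10 largest families, the marker lists, the 10 highest and lowest CVs, the 10 most balanced, most one-sided and most variable hairpins, listed pairs and miR-34a-5p; other names were chosen after their values were seen. The group, the lists and the rules were chosen with earlier results of these data known. Totals of 5242218 to 8139344 counts make the spread between mice, not counting error, the limit for abundant miRNAs. The alternatives were other scales (library totals, DESeq2 1.42.0 size factors, upper-quartile factors), filters, floors, family rules, thinning to 5242218 counts and leaving out libraries; leaving out partner entries, and libraries 3, 4 and 5 together, were added after the data were seen.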

Additional observations from a re-analysis of the deposited data

Results flagged for a closer look

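In 48 results 1 library lay apart from the other 7 by Dixon's criterion at the 95% level. Of the 48, 27 were in library 3, 16 in library 5, 4 in library 4 and 1 in library 1. Chance gives this in about 1 of 20 groups. The 48 cannot be set against that rate, since the number examined is not given and some miRNAs were named for their high CVs. They also overlap: miR-192-5p enters the hepatocyte list and the shares, miR-375-3p the pancreas list, and miR-126b-3p nearly repeats miR-126a-5p.

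Library 3 was low in miR-192-5p (88221 CPM, and 12.3% of its counts, with 38.0% for the 3 miRNAs of the highest means). On the TMM scale it was also low in miR-148a-3p (66868 CPM), miR-30a-5p (41405 CPM), miR-126a-5p and miR-126b-3p (10561 CPM each). The same held for miR-30d-5p (9271 CPM), miR-30e-5p (7283 CPM), miR-30c-5p (5175 CPM), miR-194-5p (3601 CPM) and miR-126a-3p (1927 CPM). Of these, miR-148a-3p, miR-30d-5p and miR-126a-3p were not low in library 3 on library totals. On that scale miR-126a-5p and miR-126b-3p were lowest in library 5 instead. Library 3 was low in the hepatocyte list (102951 CPM) and, by TMM but not on library totals, in the endothelial list (12488 CPM). It was high in the biliary list (984.2 CPM) with miR-200b-3p (391.4 CPM), miR-429-3p (249 CPM), miR-200a-3p (222.2 CPM) and miR-141-3p (110 CPM), in miR-199a-3p (1563 CPM), miR-199a-5p (369.2 CPM) and miR-214-3p (91.5 CPM), in miR-342-3p (157.9 CPM), miR-223-3p (126.1 CPM) and miR-146b-5p (123.1 CPM), in miR-34a-5p (111.9 CPM) and in miR-582-3p (173.6 CPM).

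Library 5 was high in miR-10a-5p (48778 CPM), miR-10b-5p (20835 CPM), miR-375-3p (2079 CPM), the pancreas list (2080 CPM), the neuronal list (10.7 CPM) and the Dlk1-Dio3 list (6577 CPM), with miR-127-3p at 4055 CPM, miR-411-5p at 716.8 CPM, miR-434-3p at 597.8 CPM, miR-541-5p at 432.4 CPM, miR-136-3p at 195.1 CPM, miR-410-3p at 173.7 CPM, miR-381-3p at 110.8 CPM, miR-136-5p at 78.6 CPM, miR-434-5p at 77.9 CPM and miR-409-3p at 49.4 CPM. Library 4 was high in miR-215-5p (1955 CPM), miR-133a-3p (212.8 CPM), the muscle and heart list (227.1 CPM) and miR-144-3p (179.6 CPM). In library 1 the 5p arm of miR-455 held 32.7% of the counts of its hairpin. On library totals library 3 stood above the others in 87 miRNAs and below in 9, so the direction of its deviations depends on the scale. On that scale miR-10a-5p was higher in library 3 than in library 5. The causes of these deviations were not tested.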

How the results depend on the processing

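Without the partner entries of overlapping hairpins the 10 most abundant miRNAs held 76.2% of the counts, and 19 pairs (0.0569% of 33411) were called. A floor of 1 CPM gave 368 miRNAs in every library and a floor of 100 CPM 117. With families by the number in the name the 10 largest held 80.2%. With no filter 251 of 428 hairpins had 90% of their counts on 1 arm, and with at least 10 counts the 5p arm was ahead in 129 of 242; more hairpins were counted. The median CV was 0.288 with upper-quartile factors, 0.251 from 1 CPM, 1.08 with no filter, 0.265 by edgeR and 0.0869 without libraries 3, 4 and 5, and a CV above 0.5 was found for 107 miRNAs from 1 CPM and 5 without those libraries. From 100 CPM 2.14% of 8515 pairs were called against 0.108% of all, where fewer pairs were tested. By Spearman's rho 0% of the pairs were called, and the shares of same-cluster and same-hairpin pairs called were 0%. These shares are limited by the smallest exact permutation p of rho, 4.96e-05. Each library left out in turn gave a median CV of 0.119 to 0.179, 22 to 42 miRNAs with a CV above 0.5 (lowest without library 3) and 0 to 0% of the pairs called.

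The other 89 values of these results moved by less than 1 SD or 1.5 times. Of the 31 mean levels of named miRNAs and summed lists, 5 moved by over 1.5 times without libraries 3, 4 and 5, and none did with another scale: the pancreas list went from 281 to 17.3 CPM, the Dlk1-Dio3 list from 1053 to 149 CPM, the muscle and heart list from 33.7 to 4.29 CPM, the biliary list from 305 to 184 CPM and miR-34a-5p from 32.7 to 20.2 CPM. Of the CVs of named miRNAs 35 values moved by over 1.5 times. The other causes were not tested. No paired analysis was possible because 1 group was described. miRNAs under 10 CPM, and minor arms, are limited by depth.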

Other observations

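miR-6240, miR-6236, miR-6538 and miR-6238, chosen after their values were seen, rose and fell in step across the livers without belonging to a listed cell type. miR-6240 was at 311, 1679, 1790, 760, 2389, 161, 132.4 and 118 CPM in libraries 1 to 8, a spread from 118 to 2389 CPM. miR-6236 was at 6.72 to 139 CPM, miR-6538 at 4.74 to 74.0 CPM and miR-6238 at 1.55 to 52.2 CPM. All 4 were highest in library 5, next in libraries 2 and 3 and then in library 4, and lower in libraries 1, 6, 7 and 8, and unlike most variable miRNAs they were not set by 1 library. Their CVs were between 0.858 and 1.01.

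Other called pairs joined abundant hepatic miRNAs from separate loci: miR-101a-3p with miR-30a-5p (r = 0.998, rho = 1, exact permutation p = 2.48e-05) and with miR-29c-3p (r = 0.987, rho = 1, same exact permutation p), and without the 2 farthest libraries r was 0.966 and 0.917. miR-143-3p ran opposite to miR-193a-3p (r = -0.986, rho = -1, same exact permutation p), with r = -0.974 without them.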
